A study of Mus musculus with 12 samples.

Results

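*Ncam1*, the gene deleted in these mice, was followed together with 6 related immunoglobulin adhesion molecules (IgSF-CAMs) and both polysialyltransferases, to ask whether any relative rose where *Ncam1* was lost. The 9 genes, *Ncam1*, *Ncam2*, *Alcam*, *L1cam*, *Chl1*, *Nrcam*, *Cadm1*, *St8sia2* and *St8sia4*, were chosen by name, and all 9 are among the 48526 genes counted. RNA came from ventricular cells of adult *Ncam-1* WT and *Ncam-1* KO mice, the latter carrying a germline null allele, so that *Ncam1* was missing in every cell and throughout development. Both genotypes had been crossed with the *Cntn2*-EGFP BAC reporter, kept on a CD1 background, whereas the *Ncam-1*-/- line was kept on C57BL/6. Dissociated cells of all 4 groups were stained with 50 nM TMRM, a dye that accumulates in mitochondria and marks cardiomyocytes, for 15 min. Those with GFP were taken as Purkinje cells (PCs) and those without as ventricular myocytes (VMs), which gave 3 libraries of each cell type in each genotype, 12 in all. The labels do not say which libraries came from which hearts, and p-values therefore measure the spread between these libraries.

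NCAM-1 is a cell surface protein with immunoglobulin and fibronectin type III domains that binds NCAM-1 on the neighbouring cell and signals through FGF receptors and the kinase Fyn. NCAM-2 has the same domain order, L1CAM, CHL1 and NrCAM form the L1 family, and ALCAM and CADM1 are shorter members of the superfamily that bind their own kind and other partners across cell contacts. ST8SIA2 and ST8SIA4 add polysialic acid (PSA), a long and strongly charged sugar chain, chiefly to NCAM-1, which weakens adhesion. In the heart, adhesion molecules sit at the contacts between PCs, the fast-conducting cells that carry the impulse through the ventricles.

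Between 1532393 and 6761356 read pairs per library fell on genes outside the mitochondrial genome, and mitochondrial genes took 79.0% to 91.3% of all counts. Levels are given as normalised read counts, that is, counts divided by the library's TMM-adjusted size and multiplied by the mean of that size over the 12 libraries. One read pair was then worth 0.480 to 2.15 normalised counts. A library with 3 or fewer counts of a gene was treated as at the floor of detection, which covers counting error only, and that floor lay between 1.44 and 6.45 normalised counts. WT PC 2 stood apart. In it 63.9% of the pairs were not aligned (18.8% to 24.7% elsewhere) and 11847 genes had a count (13571 to 18129 elsewhere). The labels were checked against 9 Purkinje markers, among them *Cntn2*, *Gja5*, *Etv1*, *Pcp4* and *Irx3*. Their summed normalised count was 855.1, 1941.2 and 2126.5 in WT PCs 1 to 3, 377.8, 320.0 and 1367.7 in KO PCs 1 to 3, and 74.7 to 187.6 in the 6 VM libraries. KO PCs 1 and 2 thus held less of these transcripts than any WT PC library, whereas KO PC 3 lay within the WT range. In such bulk samples, fewer cells of a type and less RNA per cell cannot be told apart. Of 14 markers of nerve and glia, *Sox10*, *Prph* and *Th* had no count in any library, whereas *Uchl1* (45.8 ± 33.1), *Stmn2* (24.7 ± 30.9) and *Dbh* (18.8 ± 21.9, SD, n = 3) were present and had their highest mean in WT PCs.

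The 9 transcripts are distinct enough to be counted apart with 50-base reads. None of the 8787 windows of 50 bases in the *Ncam1* transcripts of GENCODE M21 (GRCm38) occurs in another of the 9 genes, and 3.06% occur in a transcript of any other gene. *L1cam* and *St8sia4* share 2 windows, and no other pair shares any. The coding sequences of *Ncam1* and *Ncam2* are identical at 53.8% of aligned positions, those of *St8sia2* and *St8sia4* at 58.8%. The stretches around the longest identical run of each of these pairs are shown, with the shared bases in capitals. Stretches that are alike apart from scattered mismatches were not searched for. The longest run that *Ncam1* shares with another of the 9 coding sequences was 19 bases, with *Cadm1*.

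Ncam1 (chr9:49568400-49568459, minus strand, exon 3): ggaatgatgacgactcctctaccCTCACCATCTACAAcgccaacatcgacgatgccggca
Ncam2 (chr16:81434858-81434917, plus strand, exon 3): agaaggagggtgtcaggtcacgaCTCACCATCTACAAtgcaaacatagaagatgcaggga
St8sia2 (chr7:73960777-73960837, minus strand, exon 5): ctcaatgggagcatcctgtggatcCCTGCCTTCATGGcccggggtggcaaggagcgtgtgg
St8sia4 (chr1:95627592-95627652, minus strand, exon 4): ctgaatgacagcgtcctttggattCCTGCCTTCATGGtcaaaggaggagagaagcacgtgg

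The shared run measured 14 bases in the *Ncam1* and *Ncam2* pair and 13 bases in the polysialyltransferase pair, both well short of a read. Overlapping genes had few counts of their own, which does not show how many reads over the shared bases were left out. *Gm11149*, which runs antisense through *Ncam1* and overlaps 417 of its exon bases, had at most 2 counts in a library, and *Arhgap4*, which shares 100 exon bases with *L1cam*, had at most 4.

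*Ncam1* was nearly absent from KO cells. The gene (ENSMUSG00000039542, chr9:49502136-49798925, minus strand) had 83, 34 and 116 counts in WT PCs 1 to 3, or 39.9, 73.1 and 73.9 normalised counts, and 0, 1 and 1 counts in KO PCs. WT VMs 1 to 3 had 6, 0 and 9 counts, and KO VMs none. WT PCs were therefore the only group with *Ncam1* above the floor in every library, and no KO library exceeded 1 count. The mean in WT PCs was 62.3 ± 19.4 (SD, n = 3) and in KO PCs 0.709 ± 0.696 (SD, n = 3). Against a floor of 3 counts in each KO PC library, KO PCs held at least 15.3-fold less *Ncam1*, and the PC groups did not overlap, where 4.67% of all genes tested were lower without overlap. The fitted log2 fold change was -6.14 (standard error 0.830), and the gene ranked 1 by p-value among the 11852 genes tested. In edgeR's quasi-likelihood test its p-value was 2.20e-05, and 0.261 after Benjamini-Hochberg adjustment over all genes tested (1.30e-06 to 1 over the alternatives). The adjusted value was 3.36e-04 in DESeq2's Wald test and 0.00785 in edgeR's without WT PC 2.

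*Ncam1* was also a PC transcript in WT hearts. Its log2 fold change in WT PCs against WT VMs was 3.70 (standard error 0.824, 95% confidence interval 1.84 to 5.57), with all 3 PC libraries above all 3 VM libraries. The gene did not pass the adjustment over 11617 genes (unadjusted p = 0.00153, adjusted p = 0.305 by edgeR's quasi-likelihood test), and did so without WT PC 2 (adjusted p = 0.0200) and with DESeq2 (adjusted p = 2.07e-04), in a range of 4.35e-05 to 0.993 over the alternatives. Set against the summed Purkinje markers, *Ncam1* came to 4.67%, 3.77% and 3.48% in WT PCs 1 to 3, and to 0%, 0.434% and 0.0538% in KO PCs 1 to 3. KO PC 3, whose marker sum lay within the WT range, thus had 1 count of *Ncam1*, and the gene was as low there as in the libraries with a low marker sum. The sum of the 14 nerve and glia markers was 68.7 to 154.8 in WT PCs, 20.9 to 50.4 in KO PCs and 17.6 to 45.5 in VMs, and its part in the *Ncam1* level of WT PCs was not tested. In VMs the gene was under the filter in the genotype comparison, and WT VM 2 and all KO VMs were at 0. Fitted without the filter, its log2 fold change in KO VMs against WT VMs was -5.06 (95% confidence interval -8.81 to -1.31). That value did not pass the adjustment (unadjusted p = 0.00815, adjusted p = 0.616 in edgeR's test).

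No relative passed a test for a rise in KO PCs. A comparison covered genes with a mean normalised count above 5 over its 6 libraries, which left 4 of the 9 genes in KO PCs against WT PCs. These were *Ncam1*, *Alcam*, *Cadm1* and *St8sia4*, the first of which passed through the WT PCs in which it is high. None passed the adjusted threshold of 0.05, where 0% of all 11852 genes tested did, and *Ncam1* alone had an unadjusted p under 0.05, against 3.20% of all genes (379). DESeq2's Wald test called 7 genes, among them *Ncam1* and no other of the 9. Of the 2 relatives tested, *Cadm1* had a positive log2 fold change and *Alcam* a negative one, as did the polysialyltransferase *St8sia4*, with a median of 0.00 over all genes. In KO VMs against WT VMs, 2 of the 9 genes were tested (*Cadm1* and *St8sia4*) and neither passed, where 0.0362% of 11052 genes did, nor had an unadjusted p under 0.05, where 5.14% did.

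**Figure D1:**
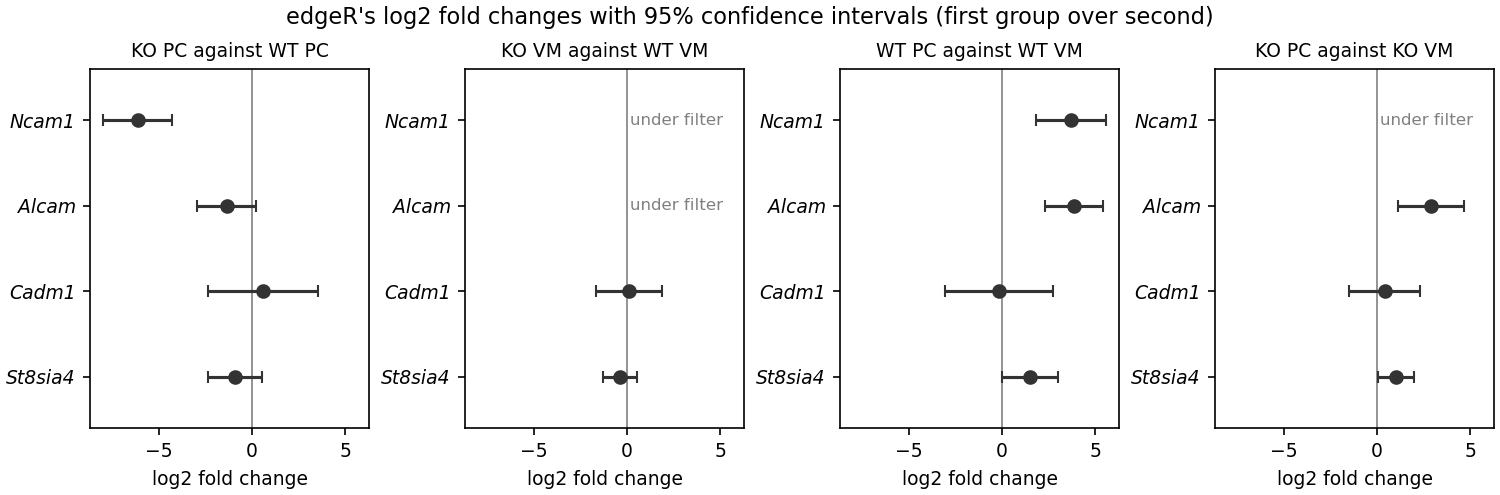
Log2 fold changes (x axes, first group over second) of the 4 genes that passed the filter, in 4 comparisons of 3 libraries against 3. Points are edgeR's estimates and bars their 95% confidence intervals. *Alcam* in KO PCs against WT PCs runs from -2.95 to 0.22, and its intervals in PCs against VMs lie above 0 in both genotypes.

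*Alcam*, which encodes the adhesion molecule that binds CD6 and ALCAM itself, was the relative closest to *Ncam1* in level and pattern. In WT PCs 1 to 3 it had 65, 13 and 130 counts, or 31.2, 27.9 and 82.8 normalised counts, and in KO PCs 1 to 3 it had 3, 11 and 43 counts, or 5.81, 15.3 and 31.7 normalised counts. Only KO PC 3 reached the range of the WT PCs, at its lower end. The log2 fold change in KO PCs was -1.37 (standard error 0.713), which missed the threshold (unadjusted p = 0.0839, adjusted p = 0.980 by edgeR's quasi-likelihood test). Its 95% confidence interval, -2.95 to 0.22, leaves room for a level in KO PCs between 0.129 and 1.16 times that in WT PCs. A rise of more than 1.16-fold was thus outside the interval of this fit, and a fall was not shown. Intervals with libraries left out are not given here, so that bound holds for this fit only. With KO PCs 1 and 2 left out, a choice made after the marker sums were seen, the log2 fold change was -0.58. With 1 library left out the log2 fold change was lowest without KO PC 3, at -2.14 (unadjusted p = 0.0353 in edgeR's test). It was highest without WT PC 3, at -0.70 (unadjusted p = 0.424 in the same test). An unadjusted p under 0.05 was also reached without WT PC 2 (-1.56), with no filter (-1.37), in the fit of 12 libraries (-1.37) and with the replicate block (-1.49), and the adjusted p ran from 0.563 to 1 over the alternatives.

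Set against the summed Purkinje markers, *Alcam* did not separate the genotypes. It stood at 3.65%, 1.44% and 3.89% in WT PCs 1 to 3 and at 1.54%, 4.78% and 2.32% in KO PCs 1 to 3. The part of the marker levels in the difference in *Alcam* was not tested. *Alcam* lies on chromosome 16 (chr16:52248996-52454074, minus strand), away from the targeted locus.

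**Figure D2:**
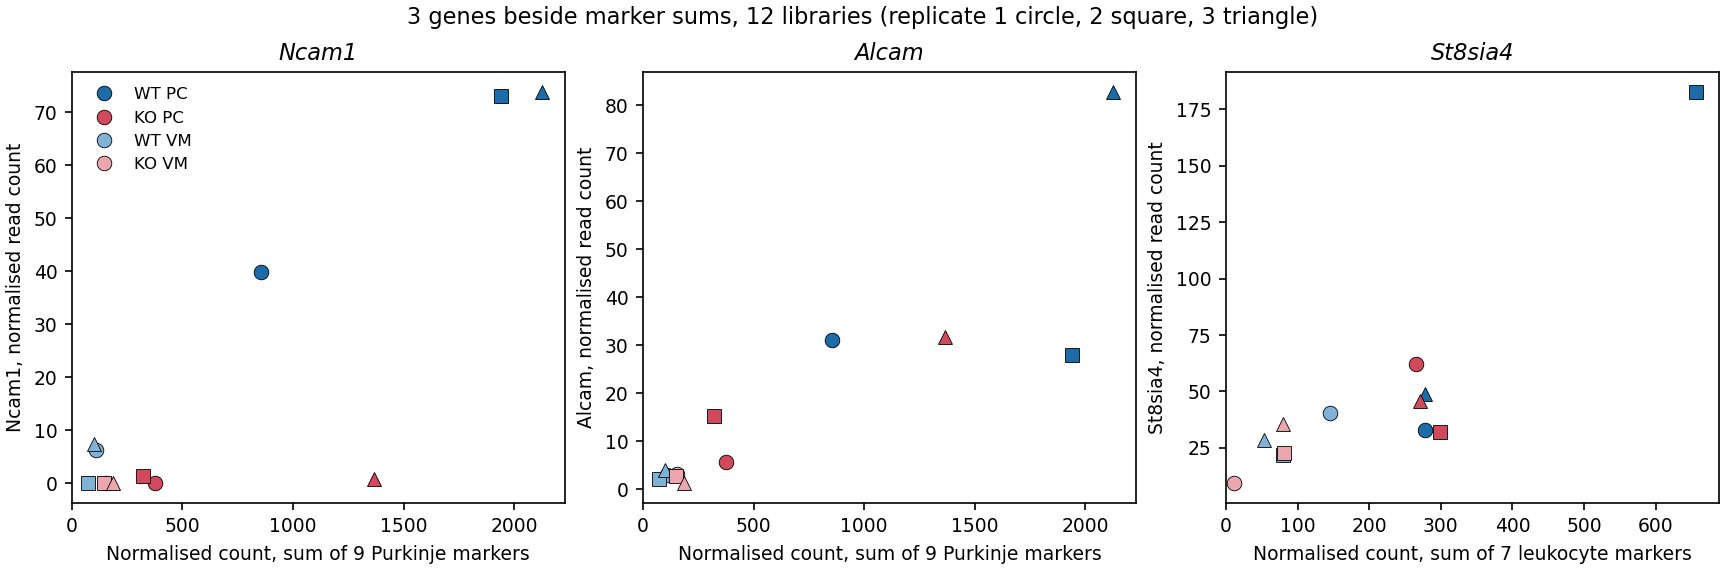
Normalised read counts of *Ncam1*, *Alcam* and *St8sia4* (y axes) against the summed normalised count of 9 Purkinje markers (left and middle) or 7 leukocyte markers (right). Each point is 1 of 12 libraries, coloured by group, with shape for the replicate. KO PC 3 has a Purkinje marker sum of 1367.7 and *Ncam1* at 0.736, and WT PC 2 has the highest *St8sia4* count (182.7) and the highest leukocyte marker sum (655.7).

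All 3 WT PC libraries exceeded all 3 WT VM libraries in *Alcam*. In KO the values did not overlap either, but KO PC 1, with 3 counts, lay at the floor like the 3 KO VM libraries and could not be told from them at this depth. VMs held 3.10, 2.07 and 4.08 normalised counts in WT and 3.12, 2.83 and 1.28 in KO, from 5 or fewer counts each. The log2 fold change was 3.87 (standard error 0.686, unadjusted p = 3.21e-04, adjusted p = 0.178 by edgeR's quasi-likelihood test) in WT. The adjusted value ran from 1.80e-04 to 0.998 over the alternatives and was 0.00323 without WT PC 2. In KO all 3 VM libraries were at the floor, against which *Alcam* was at least 4.14-fold higher in PCs (log2 fold change 2.88, standard error 0.842, adjusted p = 0.156 in the same test). KO PC 3 carried much of that, and without it the bound was 2.48-fold and the log2 fold change 2.10. Over all genes tested, 7.33% (WT) and 8.94% (KO) were higher in PCs without overlap. *Ncam1* and *Alcam* passed the filter on low values through the PCs in which they are high, so their lack of overlap is given as a description. Of the 4 genes tested in WT and 3 in KO none passed the adjustment, where 0.0947% (WT) and 0.832% (KO) of all genes did. An unadjusted p under 0.05 was reached by 2 genes in WT (*Ncam1* and *Alcam*) and 2 in KO (*Alcam* and *St8sia4*), against 6.52% and 9.73% of all genes.

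*Ncam2* (chr16:81200697-81626828, plus strand), the closest paralogue of *Ncam1*, was not detectable at this depth. A single count, in WT PC 3, was the total over 12 libraries, and KO PCs 1 to 3 had 0, which allows up to 5.81, 4.17 and 2.21 normalised counts. *Ncam1* in WT PCs stood at 39.9 or more. *Ncam2* therefore did not reach the level of the lost gene in any KO library.

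The L1 family was sparse in every group. *L1cam* (chrX:73853778-73896105, minus strand), known for axon growth and bundling, had 4, 0 and 0 counts in WT PCs 1 to 3 and 1, 1 and 16 in KO PCs 1 to 3, which are 1.92, 0 and 0 against 1.94, 1.39 and 11.8 normalised counts. KO PC 3 alone lay above the floor among KO PCs, and the ranges overlapped. Since the gene fell under the filter, it was fitted only without one, with a log2 fold change of 2.57 (95% confidence interval -0.87 to 6.01, unadjusted p = 0.143, adjusted p = 0.859 by edgeR's quasi-likelihood test). The smallest p-value an exact two-sided permutation test of 3 against 3 libraries can give is 0.1, and that of *L1cam* was 0.200. *L1cam* had no count in KO VMs, and with KO PCs 1 and 2 at the floor too, KO PC 3 alone set the groups apart. Fitted without the filter, *L1cam* in KO PCs against KO VMs was at 5.13 (unadjusted p = 0.00970, adjusted p = 0.302 in edgeR's test). *Nrcam* (chr12:44328885-44601964, plus strand), which clusters sodium channels at nodes of Ranvier, had 18, 0 and 1 counts in WT PCs 1 to 3 and none in KO PCs or KO VMs. WT PC 1 thus carried 18 of its 21 counts. In the fit without the filter its log2 fold change in KO PCs against WT PCs was -4.96 (95% confidence interval -9.79 to -0.14, unadjusted p = 0.0438, adjusted p = 0.859 in edgeR's test). *Chl1* (chr6:103510586-103750211, plus strand), a close homologue of *L1cam*, had at most 2 counts in any library.

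*Cadm1* (SynCAM1), an adhesion molecule of synapses and epithelia that can itself carry PSA, lies 1.64 Mb from *Ncam1* on chromosome 9 (chr9:47530173-47857637, plus strand). Its normalised count was 0.480, 4.30 and 12.1 in WT PCs 1 to 3 and 0, 11.1 and 13.3 in KO PCs 1 to 3. In VMs it was 15.5, 1.04 and 2.45 in WT and 6.23, 8.49 and 5.10 in KO. No group stood apart, and the spread within groups exceeded the differences between them. The log2 fold change in KO PCs was 0.58 with a 95% confidence interval of -2.38 to 3.54, that is, 0.193 to 11.6 times the WT level (unadjusted p = 0.671, adjusted p = 0.984 by edgeR's quasi-likelihood test). A rise of several fold was therefore not detectable for *Cadm1* at 19 or fewer counts per library. Without WT PC 1 the value was -0.02, and without WT PC 3 it was 2.14. In KO VMs it was 0.09 (95% confidence interval -1.68 to 1.87).

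Of the polysialyltransferases, *St8sia4* was found in all 12 libraries and *St8sia2* in 1. *St8sia4* (chr1:95587682-95667571, minus strand), the enzyme that keeps up polysialylation in mature tissue, had 33.1, 182.7 and 49.0 normalised counts in WT PCs 1 to 3 and 62.0, 32 and 45.7 in KO PCs 1 to 3. In VMs it had 40.3, 21.8 and 28.5 in WT and 9.35, 22.6 and 35.7 in KO. Apart from WT PC 2, the WT PC values lay within the range of the KO PCs. The log2 fold change in KO PCs was -0.90 (95% confidence interval -2.34 to 0.55, adjusted p = 0.980 by edgeR's quasi-likelihood test), and it was 0.18 without WT PC 2. In VMs it was -0.39 (95% confidence interval -1.30 to 0.52). The log2 fold change of *St8sia4* in PCs against VMs was 1.5 in WT (standard error 0.663, unadjusted p = 0.0507) and 1.01 in KO (standard error 0.462, unadjusted p = 0.0438 and adjusted p = 0.488 in edgeR's test), and the libraries overlapped in both. Without WT PC 2 the WT value was 0.41. The part of other cell types in these levels was not tested. WT PC 2, the library with 63.9% of pairs not aligned, had the most *St8sia4*. It also had the highest sums of 7 leukocyte (655.7), 7 fibroblast (1842.3) and 14 nerve and glia markers (154.8). KO VM 1, which had the least *St8sia4*, had the lowest sums of leukocyte (10.9), fibroblast (71.7), endothelial (76.4) and mural markers (271.2). Among KO PCs 1 to 3 the leukocyte sums were 265.4, 299.2 and 270.3, and KO PC 2, with the highest, had the least *St8sia4*. Over the groups, the leukocyte sum was 277.7 to 655.7 in WT PCs, 265.4 to 299.2 in KO PCs, 53.8 to 144.7 in WT VMs and 10.9 to 80.7 in KO VMs. *Cd3e*, the defining T cell marker of that list, had at most 2 counts in a library.

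*St8sia2* (chr7:73939119-74013690, minus strand), the enzyme prominent in development, had 13 counts in WT PC 3, or 8.28 normalised counts, and none in the other 11 libraries. With KO PCs at 0 in all 3 libraries and 2 of 3 WT PC libraries at 0 as well, no difference was detectable.

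Per kilobase of exon, the scale on which genes can be set against each other, *Ncam1* and *Alcam* led in WT PCs at 7.19 ± 2.24 and 6.65 ± 4.32 (SD, n = 3), followed by *St8sia4* at 4.40 ± 4.09. The ranges of these 3 overlapped, and *St8sia4* did not overlap with *Cadm1*, next in order at 0.539 ± 0.567. *St8sia2* (0.513), *Nrcam* (0.232), *L1cam* (0.0872), *Ncam2* (0.0187) and *Chl1* (0) came after it with overlapping ranges. In KO PCs the order was *Alcam* at 2.47 ± 1.84, *St8sia4* at 2.32 ± 0.747, *Cadm1* at 0.779 ± 0.682 and *L1cam* at 0.686 ± 0.796, with the rest at or under 0.0925. In WT VMs *St8sia4* (1.5 ± 0.467), *Cadm1* (0.606 ± 0.764), *Ncam1* (0.521 ± 0.456) and *Alcam* (0.433 ± 0.140) were the 4 highest, each overlapping with the next. In KO VMs *St8sia4* (1.12 ± 0.656) and *Cadm1* (0.633 ± 0.165) overlapped, and *Alcam* (0.338 ± 0.139) lay below *Cadm1*. *Alcam* was at the floor there, with 2, 2 and 1 counts in KO VMs 1 to 3 against 4, 6 and 4 of *Cadm1*. The order of these 2 genes was therefore not resolved at this depth. With the length of the longest transcript in place of all exons, *St8sia4* rose above *Alcam*, to 8.81 against 7.84 in WT PCs and to 4.64 against 2.92 in KO PCs.

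The 6 relatives taken as a sum were not higher in KO PCs than in WT PCs. Their summed normalised count per kilobase was 5.34, 4.34 and 12.9 in WT PCs 1 to 3 and 1.24, 3.41 and 7.44 in KO PCs 1 to 3. The means were 7.52 ± 4.68 and 4.03 ± 3.15 (SD, n = 3), and the ranges overlapped. With *Ncam1* included the 7 molecules came to 9.94, 12.8 and 21.4 in WT PCs, all above the 1.24, 3.57 and 7.53 in KO PCs. The Purkinje marker sum was lower in KO PCs 1 and 2 too, and in KO PC 3 it lay within the WT range. Per 1000 normalised counts of that sum, the 6 relatives stood at 6.24, 2.24 and 6.07 in WT PCs and 3.28, 10.7 and 5.44 in KO PCs, and the 7 molecules at 11.6, 6.59 and 10.1 against 3.28, 11.2 and 5.51, with overlap in both. *Alcam* supplied 59.1% to 66.0% of that sum in KO PCs and 30.7% to 54.3% in WT PCs, where *Ncam1* supplied 39.8% to 66.0%. In VMs the sum was 0.391 to 2.71 in WT and 0.668 to 1.44 in KO.

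**Figure D3:**
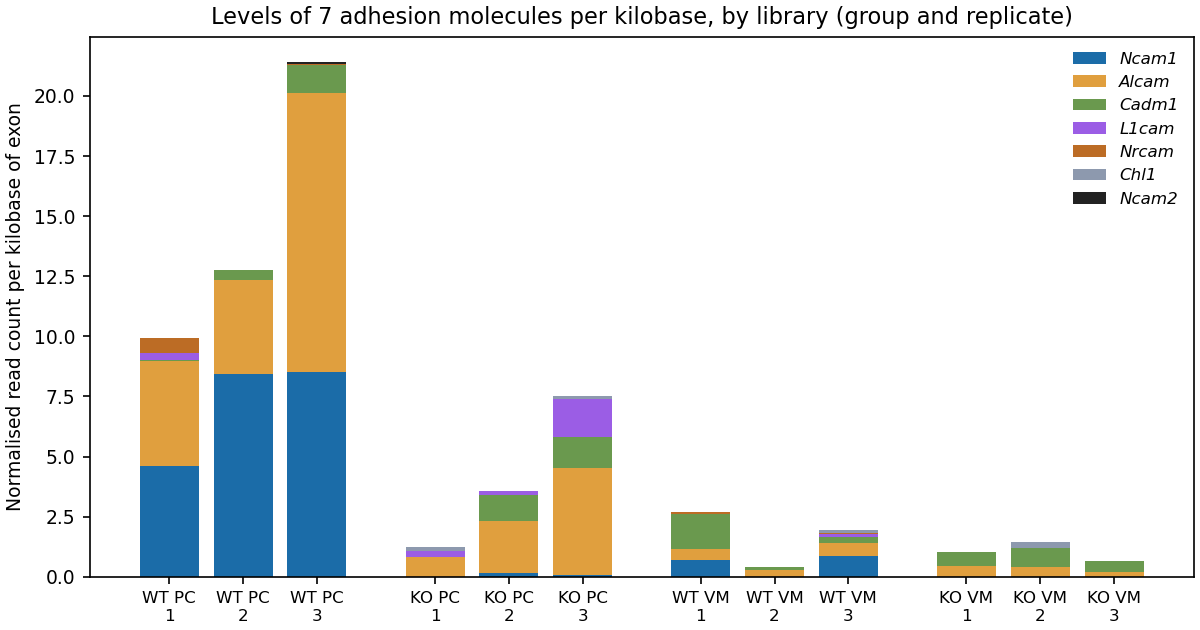
Normalised read counts per kilobase of exon (y axis, linear from 0) of the 7 adhesion molecules, stacked for each of the 12 libraries (x axis, group and replicate). WT PC libraries reach 9.94 to 21.4 and KO PC libraries 1.24 to 7.53, and *Alcam* makes up most of what is left in KO PCs.

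The change with genotype was also compared between PCs and VMs, in 1 fit of all 12 libraries. Of the 11533 genes tested, 0 passed the adjustment in edgeR's quasi-likelihood test and 343 had an unadjusted p under 0.05 (2.97%), none of them among the 4 of the 9 genes tested. DESeq2's Wald test called 0 as well. The difference was -0.99 for *Alcam* (95% confidence interval -3.43 to 1.45) and -0.89 for *Ncam1* (-5.20 to 3.42), the latter against VM groups at or near 0.

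Among 53 further IgSF adhesion molecules, 28 were tested in KO PCs against WT PCs and none had a p under 0.05, adjusted or not. Their median log2 fold change was -0.13, with 12 above 0 and 16 below. *Ntm* (neurotrimin) had 23.5, 47.3 and 41.4 normalised counts in WT PCs 1 to 3 and 0, 13.9 and 14.0 in KO PCs, a log2 fold change of -1.89 (95% confidence interval -3.87 to 0.08). *Cntn3*, a contactin, had 39.4, 43.0 and 17.8 in WT PCs and 3.87, 0 and 17.7 in KO PCs (-2.05, -4.31 to 0.20). *Cntn5*, another contactin, lay the other way, at 7.69, 0 and 3.18 in WT PCs and 9.69, 20.9 and 22.8 in KO PCs (2.11, -0.13 to 4.35). The PC libraries of the genotypes did not overlap for these 3 genes, where 4.67% of all genes were lower and 4.82% higher without overlap. The 3 genes are named for the smallest p-values of the list in this comparison, so their lack of overlap is given as a description. For *Cntn3* it rested on 17.8 against 17.7, and *Cntn5* passed the filter through the KO PCs in which it is high. All 3 had an adjusted p of 0.980 in edgeR's quasi-likelihood test. The Purkinje and nerve and glia marker sums moved in the same direction as *Ntm* and *Cntn3*, and their part was not tested. The Purkinje sum was lower in KO PCs 1 and 2 than in any WT PC library, the nerve and glia sum in all 3 KO PCs. In VMs 20 of the list were tested, and *Nectin2* alone had an unadjusted p under 0.05 in edgeR's test, a share near the 5.14% of all genes. Its log2 fold change was -0.74, with 23.0 ± 7.05 normalised counts in KO VMs and 38.6 ± 5.82 in WT VMs (SD, n = 3), and its adjusted p in that fit was 0.932.

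Between cell types, genes of this list with an unadjusted p under 0.05 were higher in PCs, as were most of all genes, with 604 higher and 153 lower in WT and 846 and 264 in KO. In WT PCs against WT VMs, 27 were tested, 6 had an unadjusted p under 0.05 (6.52% of all genes did) and 1 passed the adjustment (0.0947% of all genes). That 1 was *Cntn2* (log2 fold change 7.08, standard error 0.477, adjusted p = 0.00154 by edgeR's quasi-likelihood test), the gene whose reporter defined the PC gate. *Ntm* and *Cntn3* were next at 4.47 (standard error 0.849) and 4.12 (standard error 1.09). In KO PCs against KO VMs, 24 were tested, 8 had an unadjusted p under 0.05 (9.73% of all genes), and 2 passed (0.832%), *Cntn2* (5.05, adjusted p = 0.0124) and *Pecam1* (2.12, adjusted p = 0.0403). *Pecam1* is an endothelial marker, and the sum of 7 endothelial markers, itself included, was 539.1 to 1751.2 in KO PCs and 76.4 to 348.1 in KO VMs. The adjusted p of *Pecam1* ran from 3.16e-13 to 0.347 over the alternatives. Without KO PC 3 the value of *Cntn2* was 2.95. *Clmp*, an adhesion molecule of the CAR family, had a log2 fold change of 3.33 (adjusted p = 0.217).

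Of 34 signalling partners of NCAM-1, 26 were tested in KO PCs against WT PCs and none had a p under 0.05 in edgeR's test, adjusted or not. *Fgfr1*, an FGF receptor through which NCAM-1 signals, had 28.8, 58.0 and 50.9 normalised counts in WT PCs 1 to 3 and 25.2, 26.4 and 28 in KO PCs, with a log2 fold change of -0.77 (95% confidence interval -1.92 to 0.38). All 3 KO values lay below all 3 WT values, by 28 against 28.8 at the closest, where 4.67% of all genes were lower without overlap. As *Fgfr1* had the smallest p-value of the list in this comparison, this is given as a description. The Purkinje marker sum was lower in KO PCs 1 and 2 as well, and its part was not tested. *Ptpra*, the phosphatase that activates Fyn, was at -0.58 (-1.46 to 0.30), and *Map2k2*, a kinase of the MAPK cascade, at -0.49 (-1.44 to 0.45). In VMs 24 were tested and none passed the adjustment, with *Nras* (-0.44) and *Ptk2* (-0.42) above 0.05 also before it. Between cell types none of the list passed the adjustment. The smallest p-values in WT belonged to *Gdnf* (3.04), *Fgfr1* (1.22) and *Prnp* (-0.77), and in KO to *Hspg2* (0.64), *Ptk2* (0.59) and *Fyn* (0.70), given as log2 fold changes of PCs over VMs.

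Sialic acid synthesis and transfer showed no gene that passed the adjustment in any comparison. The list of 22 had 15 genes tested. In KO PCs against WT PCs 12 of these had a log2 fold change above 0 (median 0.34), against 50.2% of all genes. *St3gal5*, which makes the ganglioside GM3, had 141.2, 45.1 and 41.4 normalised counts in WT PCs 1 to 3 and 197.6, 185.1 and 106.8 in KO PCs (log2 fold change 1.07, 95% confidence interval -0.05 to 2.20). *Gne*, the rate-limiting enzyme of sialic acid synthesis, was at -0.74 (-1.71 to 0.22) and *St3gal6* at 0.50 (-0.32 to 1.33). In KO VMs against WT VMs, *St3gal6* (log2 fold change -0.50) and *Slc35a1*, the CMP-sialic acid transporter (-0.63), had an unadjusted p under 0.05 and an adjusted p of 0.932 in edgeR's test, and *St3gal2* (-0.58) had neither under 0.05. For *St3gal6* the change in PCs exceeded that in VMs by 0.99 on the log2 scale (95% confidence interval 0.17 to 1.82, unadjusted p = 0.0210, adjusted p = 0.998 in the same test). In PCs against VMs, *Slc35a1* (-1.48, unadjusted p = 0.0196 in edgeR's test), *Gne* (0.85) and *St3gal6* (-0.61) had the smallest p-values in WT, and *Neu3* (1.0), *St8sia6* (1.84) and *St3gal5* (0.60) in KO.

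Of 4 other proteins that can carry PSA, 3 were tested. *Nrp2*, a semaphorin and VEGF co-receptor, had 80.2, 47.3 and 75.2 normalised counts in WT PCs 1 to 3 and 124.0, 83.5 and 69.2 in KO PCs, and 53.7, 14.5 and 29.3 in WT VMs against 6.23, 18.4 and 25.5 in KO VMs. Its log2 fold change between the PC groups was 0.43 (95% confidence interval -0.47 to 1.32). In KO it was higher in PCs than in VMs by 2.41 (standard error 0.421, adjusted p = 0.0132 by edgeR's quasi-likelihood test), without overlap. The adjusted value ran from 2.03e-07 to 0.122 over the alternatives. In WT the value was 1.05 (adjusted p = 0.771), and the genotypes differed by 1.35 (95% confidence interval -0.16 to 2.85), which did not pass the test. Endothelial markers, as given for *Pecam1*, were higher in the KO PC libraries as well, and their part in the *Nrp2* level was not tested. *Glg1* and *Cd36* were abundant, at 933.0 ± 31.3 and 7630.5 ± 2331.3 in WT PCs and 1057.0 ± 127.5 and 7084.2 ± 977.6 in KO PCs (SD, n = 3), with log2 fold changes of 0.18 and -0.11. *Ccr7*, the remaining carrier, had no count in any library.

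The genes whose pattern over the 12 libraries was most like that of *Ncam1* were *1190002N15Rik* (Pearson r = 0.908 on log2 normalised counts plus 2), *Ppp1r13b* (0.878), *Vegfc* (0.869), *Yes1* (0.867) and *Arid4a* (0.860), out of 11532 compared. *Vegfc*, a growth factor of lymphatic vessels, had 35.8 ± 9.76 normalised counts in WT PCs, 8.95 ± 5.65 in KO PCs, 10.9 ± 8.62 in WT VMs and 3.64 ± 1.85 in KO VMs (SD, n = 3). *Alcam* had an r of 0.735, *St8sia4* of 0.573 and *Cadm1* of 0.0225. These values describe libraries that share group, depth and Purkinje marker content and carry no test.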

How the data were processed

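The authors dissociated ventricles, sorted PCs and VMs, amplified the RNA with a low-input kit (Ovation Trio) and sequenced 50-base paired-end reads. Per the labels and the submitters' processing notes, reads were aligned to mm10 with STAR 2.5.0c and counted with HTSeq 0.6.0 over the GRCm38 annotation, release 74. Whether counting used the strand is not given in the sources used here. The authors deposited raw counts per gene for each library, 3 per group, and 40.0% to 73.6% of read pairs in them carried no gene name and were left out.

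Genes with a mean normalised count above 5 over the libraries of a comparison were fitted with edgeR 4.0.16 (glmQLFit and glmQLFTest, TMM) in R 4.3.3, within the 2 groups compared, or all 4 for the interaction, and p-values were adjusted by Benjamini-Hochberg over all genes tested, at a threshold of 0.05. Confidence intervals are at the 95% level. Exact permutation tests were two-sided. Gene names, lengths and sequences came from GENCODE M21 on GRCm38, and 382 IDs had no entry there. Per-kilobase levels used the union of exons. The 9 genes and all lists were chosen with earlier results of these data known. Of the lists, each gene past the threshold and the 3 with the smallest p per comparison are named, together with the 5 genes most correlated with *Ncam1* and genes overlapping one of the 9. A few genes of these lists are not reported here.

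Alternatives were DESeq2 1.42.0 (Wald test), its size factors in edgeR, no filter, 1 fit of 12 libraries, the replicate number as a block, each library left out, another transcript length, and, chosen after seeing the data, KO PC 3 as the only KO PC library. Within groups, every pair of libraries differed by more than sampling noise. Total gene counts were 13883427 to 42505705. Tested on simulated data for KO PCs against WT PCs, 200 genes changed by 2 on the log2 scale among about as many genes as tested (11799 and 11747) were recovered at 93.5% by edgeR with a dispersion of 0.1 and at 1.00% with 0.4. DESeq2 recovered 95.0% and 25.0%, with 10.4% and 23.1% of its calls false. The changed genes were drawn only from genes with higher mean counts over the PC libraries than *Ncam1*, *Alcam* and *Cadm1*. Recovery at the level of these 3 genes was therefore not measured.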

Additional observations from a re-analysis of the deposited data

How the results depend on the processing

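Of the alternative fold changes of the 9 genes and of *Cntn2*, *Pecam1* and *Nrp2*, 218 kept direction and side of the threshold, 17 lost a call, 10 gained one and 11 turned. The number of genes past the threshold in KO PCs against WT PCs was 7 with DESeq2, 132 with no filter, 3 in 1 fit of 12 libraries and 0 to 4 with single libraries left out, the highest without WT PC 2. *Ncam1* was the 1 of the 9 genes to pass, with DESeq2, with no filter and without WT PC 2 (0 to 1 over the libraries left out). In KO VMs against WT VMs the counts were 10, 47, 1 and 2 to 10, the highest without WT VM 1. In WT PCs against WT VMs they were 116, 297, 38 and 0 to 95, the highest without WT PC 2. There *Ncam1* and *Alcam* passed with DESeq2 and with no filter (2 of the 9 genes), *Alcam* alone in the fit of 12 libraries (1), and 0 to 2 with libraries left out, both without WT PC 2. In KO PCs against KO VMs the counts were 326 with no filter, 8 in the fit of 12, 20 (without KO VM 3) to 150 (without KO PC 3) with libraries left out and 71 with KO PC 3 as the only KO PC library. The interaction gave 19 with no filter. DESeq2's size factors in edgeR moved no such count by over 1.5 times. The cause of these changes was not tested, including those without the filter, where more genes were fitted.

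Directions turned with 1 library left out for *Cadm1*, which ran from -0.02 to 2.14 in KO PCs against WT PCs, -0.38 to 0.27 in VMs, -0.65 to 0.49 in WT PCs against WT VMs, -0.13 to 0.88 in KO PCs against KO VMs and -1.25 to 2.24 in the interaction. For *St8sia4* they turned in KO PCs against WT PCs (-1.32 to 0.18) and in the interaction (-0.92 to 0.57), in both without WT PC 2. *Cadm1* fell under the filter, with no value, in 1 such fit in VMs and 2 in WT PCs against WT VMs. *Cntn2* went from 5.05 to 2.95 in KO without KO PC 3. It lost its call in KO without any 1 KO VM library (adjusted p up to 0.0816 in edgeR's test) and in WT without WT VM 3 (0.0542), *Pecam1* fell to 1.28 with KO PC 3 alone (adjusted p = 0.347), and *Nrp2* was at 2.01 there (adjusted p = 0.116).

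The replicate number, taken from the titles, did not enter the main tests, and whether same-numbered libraries share hearts is not stated. Same-numbered PCs and VMs were most alike in WT but not throughout KO. The source names number the WT libraries 1, 3 and 4 where the titles have 1, 2 and 3, which leaves WT PCs and WT VMs matched alike but not WT and KO. Deviations from the group means of same-numbered WT PCs and WT VMs correlated at 0.205, 0.0814 and 0.141 over 8352 genes, those of KO PCs and KO VMs at -0.0158, 0.120 and 0.0163, and 6 of 6 WT and 3 of 6 KO libraries correlated best with their own number. With the replicate number as a block, 1 gene passed in KO PCs against WT PCs, 7 in VMs and 4 in WT PCs against WT VMs, none of them among the 9.

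Depth limits *Ncam2*, *Chl1*, *Nrcam*, *L1cam* and *St8sia2*, each above 3 counts in at most 2 of 12 libraries, for which a difference could not be detected.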
